A study of Homo sapiens with 6 samples.

Results

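Wide binding sites were the sites of 60 nt or more in 6 deposited site lists, and they numbered 19738 of 464799 sites. They were chosen by their width alone, so their widths and numbers are given as a description. The comparisons use their position, the repeat flag and what lies at or near them. Where a value counts a second wide site, as a partner in another list or a neighbour in the same one, it rests on the same width limit and is a description too. The list of FMR1 isoform 7 with I304N (I304N iso7) held 4340 wide sites, that of FMR1 isoform 1 with I304N (I304N iso1) 6414, FXR2 53, FXR1 2, wild-type FMR1 isoform 7 (wt iso7) 1183 and wild-type FMR1 isoform 1 (wt iso1) 7746. The remaining 445061 sites, all under 60 nt, were the comparison.

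PAR-CLIP locates where a protein sits on RNA inside cells. Cells take up 4-thiouridine, ultraviolet light crosslinks it to the bound protein, an RNase trims the RNA around the protein, and the protected fragments are sequenced and joined into sites. FMR1, the protein lost in fragile X syndrome, and its paralogs FXR1 and FXR2 bind messenger RNAs through KH domains and an RGG region, and I304N is a substitution in a KH domain of FMR1. Where fragments follow each other closely on a transcript, a site caller can report 1 long site or several short ones. What set the widths in these lists was not tested.

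All 6 libraries came from FlpIn T-REx HEK293 cells, an embryonic kidney line with a fixed genomic landing site for transgenes, each stably carrying 1 FLAG-HA-tagged protein. The 6 proteins were FMR1 isoform 7 with I304N, FMR1 isoform 1 with I304N, wild-type FXR2, wild-type FXR1, wild-type FMR1 isoform 7 and wild-type FMR1 isoform 1. Every line was given 1 µg/ml doxycycline to switch on the transgene together with 100 µM 4-thiouridine for 16 h, crosslinked at 365 nm, treated with RNase T1, which cuts after G, and immunoprecipitated through FLAG. The cells' own FMR1, FXR1 and FXR2 genes were not described as removed. There was 1 library per protein form, so no value has a replicate, no difference was tested between forms, and intervals (95%, exact Clopper-Pearson for shares) cover counting error only. Sites of 1 transcript are not independent of each other, so these intervals are too narrow for statements about transcripts. Read numbers per site were not given in the sources used here, and the depth behind a site is unknown.

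Wide sites made up 4.90% of the I304N iso7 sites, 4.85% of the I304N iso1 sites, 0.154% of the FXR2 sites, 0.0222% of the FXR1 sites, 1.51% of the wt iso7 sites and 6.35% of the wt iso1 sites. They held a larger part of the covered nucleotides than of the sites: 15.2% in I304N iso7, 15.1% in I304N iso1, 0.604% in FXR2, 0.0708% in FXR1, 5.31% in wt iso7 and 20.6% in wt iso1. The wt iso7 and wt iso1 lists therefore lay on either side of the I304N lists. The typical wide site was just above the limit, with a median of 76 nt in I304N iso7, I304N iso1 and FXR2, 72 nt in wt iso7 and 78 nt in wt iso1. Sites of 100 nt or more numbered 923 in I304N iso7, 1313 in I304N iso1, 8 in FXR2, 0 in FXR1, 173 in wt iso7 and 2082 in wt iso1. The widest site was 1162 nt in I304N iso7, 1160 nt in I304N iso1, 147 nt in FXR2, 67 nt in FXR1, 367 nt in wt iso7 and 1824 nt in wt iso1. No list had a break at 60 nt: I304N iso7 held 381 sites of 60 or 61 nt and 442 of 58 or 59 nt, and wt iso1 held 598 and 645.

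**Figure D1:**
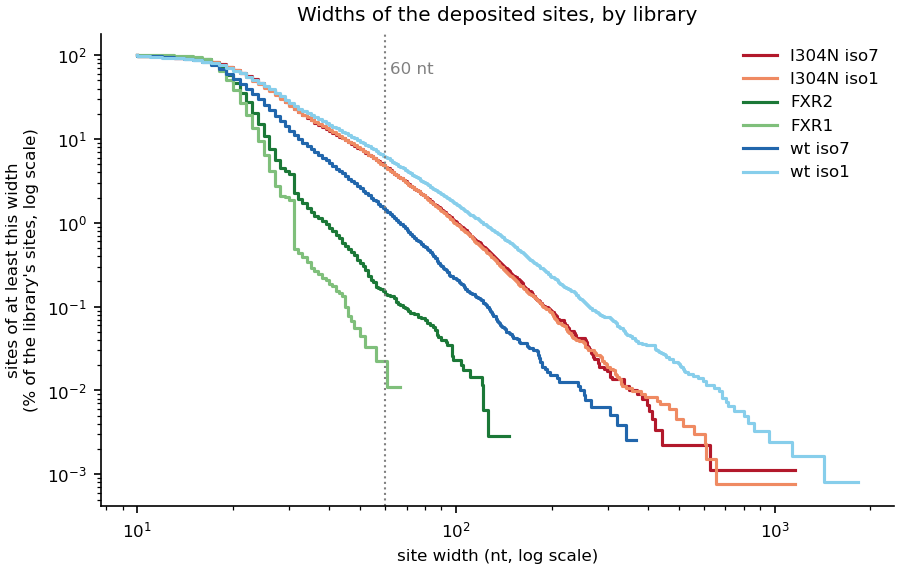
Share of each library's sites (percent, log scale) that are at least as wide as the value on the horizontal axis (nt, log scale), with 60 nt dotted. At 60 nt the lines stand at 6.35% for wt iso1, near 4.9% for both I304N lists, 1.51% for wt iso7, 0.154% for FXR2 and 0.0222% for FXR1, and the lines pass it without a step.

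The first comparison was whether other libraries hold a site at the midpoint of a wide site on the same strand, a measure that does not grow with the width of the site asked about. In I304N iso7, 91.1% (90.2 to 91.9) of wide sites had a site of at least 1 other library at the midpoint, against 78.0% of sites under 60 nt and 78.7% of all its sites. In I304N iso1 the shares were 90.1% (89.3 to 90.8) of wide sites, 67.0% of sites under 60 nt and 68.1% of all sites. In FXR2, 49 of 53 wide sites, 92.5% (81.8 to 97.9), were so covered, against 76.1% of sites under 60 nt and 76.1% of all sites. Both FXR1 wide sites were covered, where 85.3% of all FXR1 sites were. In wt iso7 the shares were 95.4% (94.1 to 96.6) of wide sites, 74.1% of sites under 60 nt and 74.4% of all sites. In wt iso1 they were 59.7% (58.6 to 60.8) of wide sites, 50.2% of sites under 60 nt and 50.8% of all sites.

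Wide sites were thus covered more often than narrower sites in every list with more than 2 of them, but the step did not fall at 60 nt. Among sites of 30 to 59 nt the shares were already 90.5% in I304N iso7, 86.8% in I304N iso1, 94.1% in FXR2, 93.6% in wt iso7 and 62.4% in wt iso1. Set against those sites, in a comparison chosen after seeing the data, the ratio of the wide share was 1.01 in I304N iso7, 1.04 in I304N iso1, 0.982 in FXR2, 1.02 in wt iso7 and 0.957 in wt iso1. It was below 1 in FXR2 and wt iso1. The shares at 30 to 59 nt were 86.8% to 94.1% in 4 of these lists, and whether such high shares held the ratios near 1 was not tested. Over single pairs of lists the ratio against sites of 30 to 59 nt ran from 0.845, for wt iso1 in FXR2, to 1.44, for FXR2 in I304N iso7. Just inside the limit, at 60 to 64 nt, 89.6% of I304N iso7 and 60.9% of wt iso1 sites were covered; just outside, at 55 to 59 nt, 88.8% and 58.6% were.

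**Figure D2:**
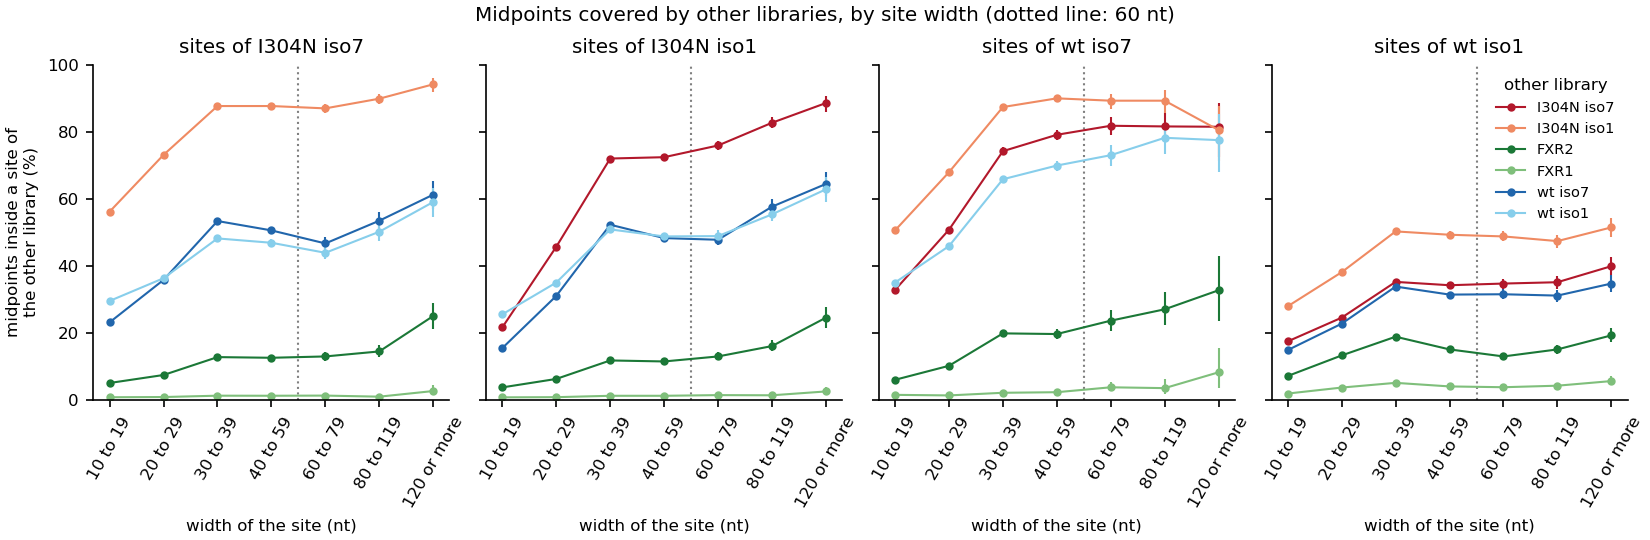
Share of sites (percent, with exact 95% intervals) whose midpoint lies in a site of another library, by width of the site (nt), for the 4 FMR1 lists; each line is another library and the dotted line marks 60 nt. Most lines climb between the narrowest sites and 30 to 39 nt and change less beyond, and for I304N iso1 sites the I304N iso7 line reaches 88.7% at 120 nt or more.

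I304N iso1 covered the wide sites of the other 3 FMR1 lists most often, and I304N iso7 those of I304N iso1, at 79.6%. The same partners ranked first among FMR1 lists for sites under 60 nt, where I304N iso7 covered 44.8% of those of I304N iso1. Wide sites of I304N iso7 lay in an I304N iso1 site for 88.8% of midpoints, in a wt iso7 site for 50.6% and in a wt iso1 site for 47.7%. For its sites under 60 nt these shares were 71.9%, 36.2% and 37.1%, and at 30 to 59 nt 87.8%, 52.3% and 47.7%. Wide sites of wt iso7 lay in an I304N iso7 site for 81.8%, in an I304N iso1 site for 88.7% and in a wt iso1 site for 74.9%. Of its sites under 60 nt 46.7%, 63.5% and 44.1% were so covered, and at 30 to 59 nt 75.9%, 88.3% and 67.2%. Wide sites of wt iso1 were covered least: 35.7% by I304N iso7, 48.8% by I304N iso1 and 31.9% by wt iso7. Those lists covered 24.8%, 37.8% and 22.7% of its sites under 60 nt, and 34.8%, 49.9% and 32.9% at 30 to 59 nt. FXR2 sites, which are short and fewer in number, still covered 14.8% of I304N iso7, 15.2% of I304N iso1, 25.3% of wt iso7 and 14.6% of wt iso1 wide sites. Against sites under 60 nt the FXR2 ratios were 1.86 in I304N iso7, 2.27 in I304N iso1, 2.63 in wt iso7 and 1.19 (1.12 to 1.26) in wt iso1. Against sites of 30 to 59 nt they were 1.17 in I304N iso7, 1.32 in I304N iso1 and 1.28 in wt iso7, and turned to 0.845 in wt iso1. FXR1, with 9017 sites in all, covered 1.24% of I304N iso7, 1.43% of I304N iso1, 3.97% of wt iso7 and 4.14% of wt iso1 wide sites. In that order it covered 0.833%, 0.797%, 1.42% and 3.27% of sites under 60 nt. At 30 to 59 nt the shares were 1.15%, 1.13%, 2.09% and 4.58%.

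Whether the covering site was itself wide split the lists further. A wide site of any other library lay at the midpoint of 68.7% (67.3 to 70.0) of I304N iso7, 56.6% (55.4 to 57.8) of I304N iso1, 84.9% (72.4 to 93.3) of FXR2, 85.2% (83.1 to 87.2) of wt iso7 and 22.3% (21.3 to 23.2) of wt iso1 wide sites. For I304N iso7 the partner was most often I304N iso1, wide at 65.0% of the wide midpoints and at 6.68% of midpoints of sites under 60 nt. In the other direction 43.0% of I304N iso1 wide sites had a wide I304N iso7 site, against 2.06% of its sites under 60 nt. Of the 1183 wt iso7 wide sites, 75.2% had a wide I304N iso1 site and 49.9% a wide wt iso1 site at the midpoint. For its sites under 60 nt these shares were 9.85% and 9.28%. Of the wt iso1 wide sites, 19.9% had a wide I304N iso1 site and 6.35% a wide wt iso7 site. Of its sites under 60 nt, 4.68% and 0.657% did. The length of each other list and its own share of wide sites move with these values, and their part was not tested.

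Counting any overlap on the same strand, the other libraries often held several short sites under 1 wide site. Wider sites meet more sites by construction, and these counts were not made for sites under 60 nt, so they are a description. Under wide sites of I304N iso7, wt iso7 held a wide site for 15.9%, 2 or more sites all under 60 nt for 30.7%, 1 site under 60 nt for 37.5% and none for 15.9%. Under wide sites of wt iso1, wt iso7 held a wide site for 8.0%, several short sites for 22.3%, 1 short site for 38.4% and none for 31.3%. FXR2 held a wide site under 0.737% of I304N iso7 and 0.374% of wt iso1 wide sites, but several short sites under 13.2% and 14.9%. As many as 22 FXR2 sites lay under 1 wide site of I304N iso7, and as many as 22 FXR1 sites lay under 1 wide site of wt iso1. Of the nucleotides inside I304N iso7 wide sites, I304N iso1 sites covered 87.9%, wt iso7 sites 49.6%, wt iso1 sites 49.2% and FXR2 sites 15.4%. Inside I304N iso7 sites under 60 nt the same lists covered 70.9%, 33.5%, 35.5% and 7.46% of the nucleotides.

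**Figure D3:**
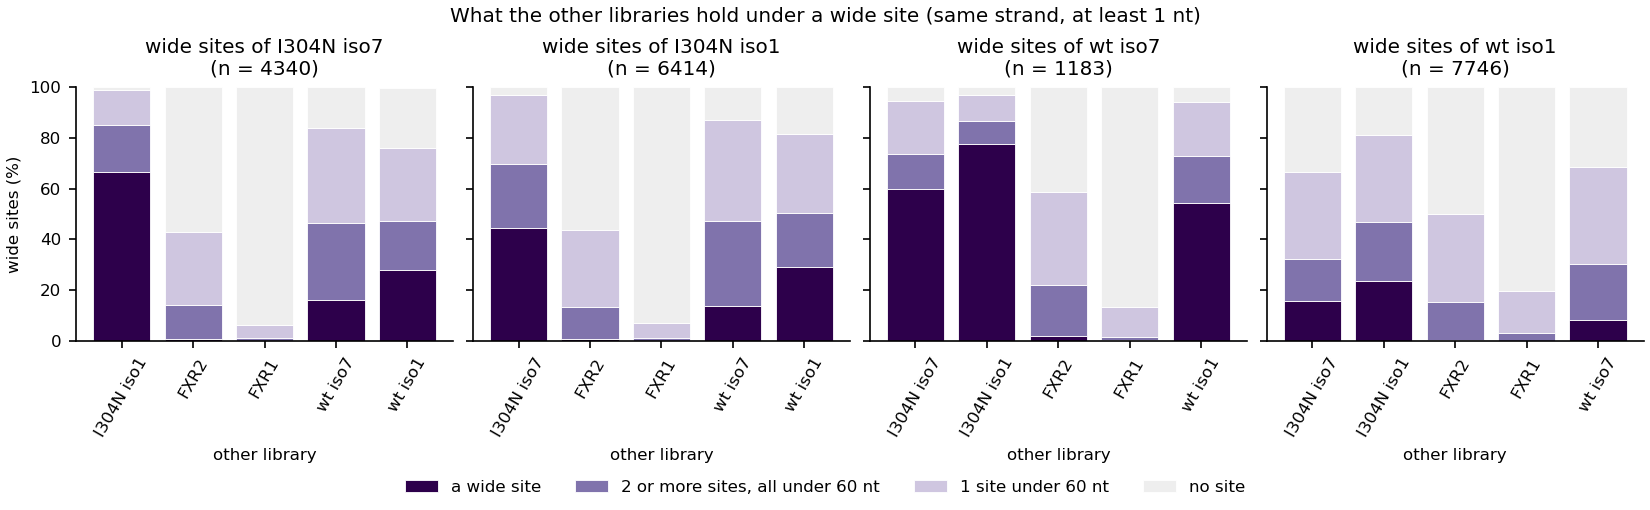
For the wide sites of each FMR1 list, the share (percent, bars from 0 to 100) under which another library holds a wide site, 2 or more sites all under 60 nt, 1 site under 60 nt, or no site, counting any shared nucleotide on that strand. I304N iso1 holds a wide site under 66.5% of I304N iso7 and 77.6% of wt iso7 wide sites, while FXR1 holds none under 93.8% of I304N iso7 and 80.2% of wt iso1 wide sites.

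Shared ends were counted to the nucleotide for pairs of sites from both lists. Where a wide I304N iso7 site had a wide I304N iso1 site at its midpoint, 25.6% of 2820 pairs began at the same nucleotide, 23.4% ended at the same nucleotide and 6.49% shared both ends. Pairs under 60 nt shared the 5′ end in 27.7%, the 3′ end in 26.3% and both in 8.27%. With wt iso1 as the partner of I304N iso7, wide pairs shared the 5′ end in 12.9% and the 3′ end in 7.82%, and pairs under 60 nt in 20.7% and 11.4%. Between wt iso7 and wt iso1 the share with both ends in common was higher in wide pairs, 3.73% against 3.25% from wt iso7 and 4.47% against 3.48% from wt iso1. It rests on 22 wide pairs, and single ends went the other way. From wt iso7 the 5′ end was shared in 14.7% of wide and 20.5% of narrower pairs, the 3′ end in 9.83% and 12.2%. From wt iso1 the values were 16.3% and 21.3% for the 5′ end, 11.2% and 12.4% for the 3′ end.

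Wide sites lay close to each other. In I304N iso7, 61.7% of wide sites had another wide site of the same list within 1000 nt on the same strand, against 20.9% of sites under 60 nt. The shares were 58.2% and 20.3% in I304N iso1, 54.7% and 0.966% in FXR2, 53.6% and 7.44% in wt iso7, and 74.8% and 29.4% in wt iso1. The median distance from a wide site to the nearest other wide site was 462 nt in I304N iso7, 559 nt in I304N iso1, 692 nt in FXR2, 685 nt in wt iso7 and 159 nt in wt iso1. A neighbour of any width within 1000 nt was nearly universal for wide sites, from 94.9% in I304N iso1 to 96.7% in wt iso1 among the lists with more than 2 wide sites. For sites under 60 nt that share was 83.1% in I304N iso7, 84.1% in I304N iso1, 70.6% in FXR2, 71.0% in wt iso7 and 86.6% in wt iso1. The nearest site of any width was a median of 19 nt away from I304N iso7 wide sites and 57 nt from its sites under 60 nt, and the pair of values was 12 and 39 nt in wt iso1.

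The deposited site names carry a number that some neighbouring sites have in common, whose meaning was not given in the sources used here. No number occurred in more than 1 place, and sites with the same number lay a median of 8 to 13 nt apart. Among wide sites 49.9% in I304N iso7, 47.8% in I304N iso1, 45.3% in FXR2, 38.7% in wt iso7 and 68.6% in wt iso1 had a number in common with another site. Among sites under 60 nt those shares were 25.5%, 25.9%, 3.34%, 10.9% and 37.2%, so wide sites were more often in such groups in all 5 lists.

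Over windows of 50000 nt on 1 strand, 7746 wide sites of wt iso1 fell into 1686 windows, and 217 of those held 50% of them. The 4340 wide sites of I304N iso7 fell into 1373 windows, of which 207 held 50%, and the 6414 of I304N iso1 into 2087, of which 301 did. In wt iso7 the 1183 wide sites fell into 468 windows, with 54 holding 50%. Windows with 5 or more wide sites held 54.9% of wide sites in I304N iso7, 56.0% in I304N iso1, 47.8% in wt iso7 and 72.8% in wt iso1. No matching share was made for sites under 60 nt, and a list with more wide sites reaches 5 in a window more readily. The window values are therefore a description of each list and not a comparison between lists.

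The window at chr17:1550001-1600000 (hg19, minus strand) was among the 5 richest of all 4 FMR1 lists. It held 33 wide of 97 sites in I304N iso7, 41 of 76 in I304N iso1, 1 of 98 in FXR2, 0 of 28 in FXR1, 30 of 97 in wt iso7 and 39 of 72 in wt iso1. FXR2 thus had as many sites there as the FMR1 lists. Nearly all of them were short, as in the whole FXR2 list: 1.02% were wide there, and 0.154% of all FXR2 sites. The window at chr1:16250001-16300000 (plus) was among the 5 richest of 3 lists, with 35 wide of 126 sites in I304N iso7, 49 of 115 in I304N iso1, 24 of 138 in wt iso7 and 44 of 95 in wt iso1. The window at chr12:49400001-49450000 (minus) held 51 wide of 224 sites in I304N iso7, the most in that list, 37 of 216 in I304N iso1, 25 of 216 in wt iso7 and 18 of 172 in wt iso1. At chr17:80000001-80050000 (minus) the I304N lists had 40 wide of 104 sites (iso7) and 39 of 101 (iso1), and the wild-type lists 16 of 106 (iso7) and 12 of 81 (iso1).

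Other rich windows belonged to wt iso1. At chr13:23900001-23950000 (minus) wt iso1 had 58 wide of 185 sites, where I304N iso7 had 4 of 86, I304N iso1 4 of 129, FXR2 0 of 81 and wt iso7 2 of 97. At chr5:112350001-112400000 (plus) it had 38 wide of 66 sites, where I304N iso7 had 2 of 49, I304N iso1 4 of 57 and wt iso7 2 of 54. At chr1:214800001-214850000 (plus) it had 37 wide of 151 sites, where I304N iso7 had 3 of 80, I304N iso1 8 of 110 and wt iso7 1 of 84. In these 3 windows the other FMR1 lists had many sites. Their wide shares there were 3.75% to 4.65% in I304N iso7, 3.10% to 7.27% in I304N iso1 and 1.19% to 3.70% in wt iso7. Over all sites of those lists the wide shares were 4.90%, 4.85% and 1.51%, so most of their sites were short there as elsewhere. These windows were chosen by their numbers of wide sites, and the values are a description.

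Wide sites that overlapped on a strand were joined across the 6 lists into 13511 wide regions. Of these, 9733 (72.0%) were wide in 1 library, 2486 in 2, 892 in 3, 385 in 4, 14 in 5 and 1 in all 6. The most common pattern was wide in wt iso1 alone, with 5685 regions (42.1%), followed by I304N iso1 alone with 2617, both I304N lists and no other with 1540, and I304N iso7 alone with 1271. Both wild-type lists and no other made 70 regions, both isoform 1 lists and no other 615, and both isoform 7 lists and no other 21. Regions wide in all 4 FMR1 lists, with or without FXR1 and FXR2, numbered 390. Being wide in 1 list did not mean bound in 1 list. Counting any overlap, 704 of the 9733 regions (7.23%) had no site of any width in the other 5 libraries, while 516 had a site in all 6. Longer regions meet more sites by construction. At the midpoint, no other library had a site for 8.89% of I304N iso7, 9.90% of I304N iso1, 4.56% of wt iso7 and 40.3% of wt iso1 wide sites. For sites under 60 nt those shares were 22.0%, 33.0%, 25.9% and 49.8%.

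The region that was wide in all 6 libraries was chr17:33478141-33478356 (minus), flagged as repeat in each list. Its widest site was 79 nt in I304N iso7, 83 nt in I304N iso1, 72 nt in FXR2, 67 nt in FXR1, 85 nt in wt iso7 and 211 nt in wt iso1. The other FXR1 wide site, at chr11:85195045-85195105 (plus, flagged as repeat), met a site of 61 nt in I304N iso7, 59 nt in I304N iso1, 61 nt in FXR2, 65 nt in wt iso7 and 73 nt in wt iso1.

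The longest region lay at chr21:34922006-34923837 (plus), 1832 nt long, where the repeat flag was set for 2 sites of wt iso1 and for none of the other lists. It held 5 wide of 5 sites in I304N iso7, 5 of 5 in I304N iso1, 3 of 32 in FXR2, 0 of 10 in FXR1, 5 of 18 in wt iso7 and 5 of 8 in wt iso1. Sites covered 98.4% of it in I304N iso7, 98.0% in I304N iso1, 53.7% in FXR2, 9.66% in FXR1, 82.3% in wt iso7 and 93.3% in wt iso1. The same stretch was nearly filled by a few long sites in 3 FMR1 lists and dotted with short ones in the paralog lists. A further wide region followed it on the strand at chr21:34924033-34924992, with widest sites of 422 nt in I304N iso7, 611 nt in I304N iso1, 105 nt in FXR2, 25 nt in FXR1, 186 nt in wt iso7 and 610 nt in wt iso1. Another, at chr21:34925004-34925351, had widest sites of 164 nt in I304N iso7, 341 nt in I304N iso1, 83 nt in FXR2, 115 nt in wt iso7 and 103 nt in wt iso1.

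The widest site of all was chrX:84525515-84527338 (plus), 1824 nt as 1 site in wt iso1. The same stretch held 14 sites in I304N iso7, 20 in I304N iso1, 21 in FXR2, 6 in FXR1 and 21 in wt iso7, covering 27.7%, 46.5%, 27.1%, 6.91% and 43.1% of it. The widest of those sites was 64 nt in I304N iso7, 149 nt in I304N iso1, 35 nt in FXR2, 27 nt in FXR1 and 139 nt in wt iso7. The next widest in wt iso1, at chr12:1310140-1311564 (plus, flagged as repeat), was 1425 nt. There I304N iso7 had 14 sites (5 wide), I304N iso1 16 (4 wide), FXR2 21 (6 wide), FXR1 22 (none wide) and wt iso7 7 (none wide). At this stretch FXR2 sites covered 79.3%, more than the 71.2% of I304N iso7, the 57.7% of I304N iso1 and the 10.0% of wt iso7. The third, chrX:24006009-24007141 (minus), was 1133 nt in wt iso1 and held 14 sites each in I304N iso7 (4 wide) and I304N iso1 (8 wide), 10 in FXR2, 2 in FXR1 and 17 in wt iso7 (1 wide).

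**Figure D4:**
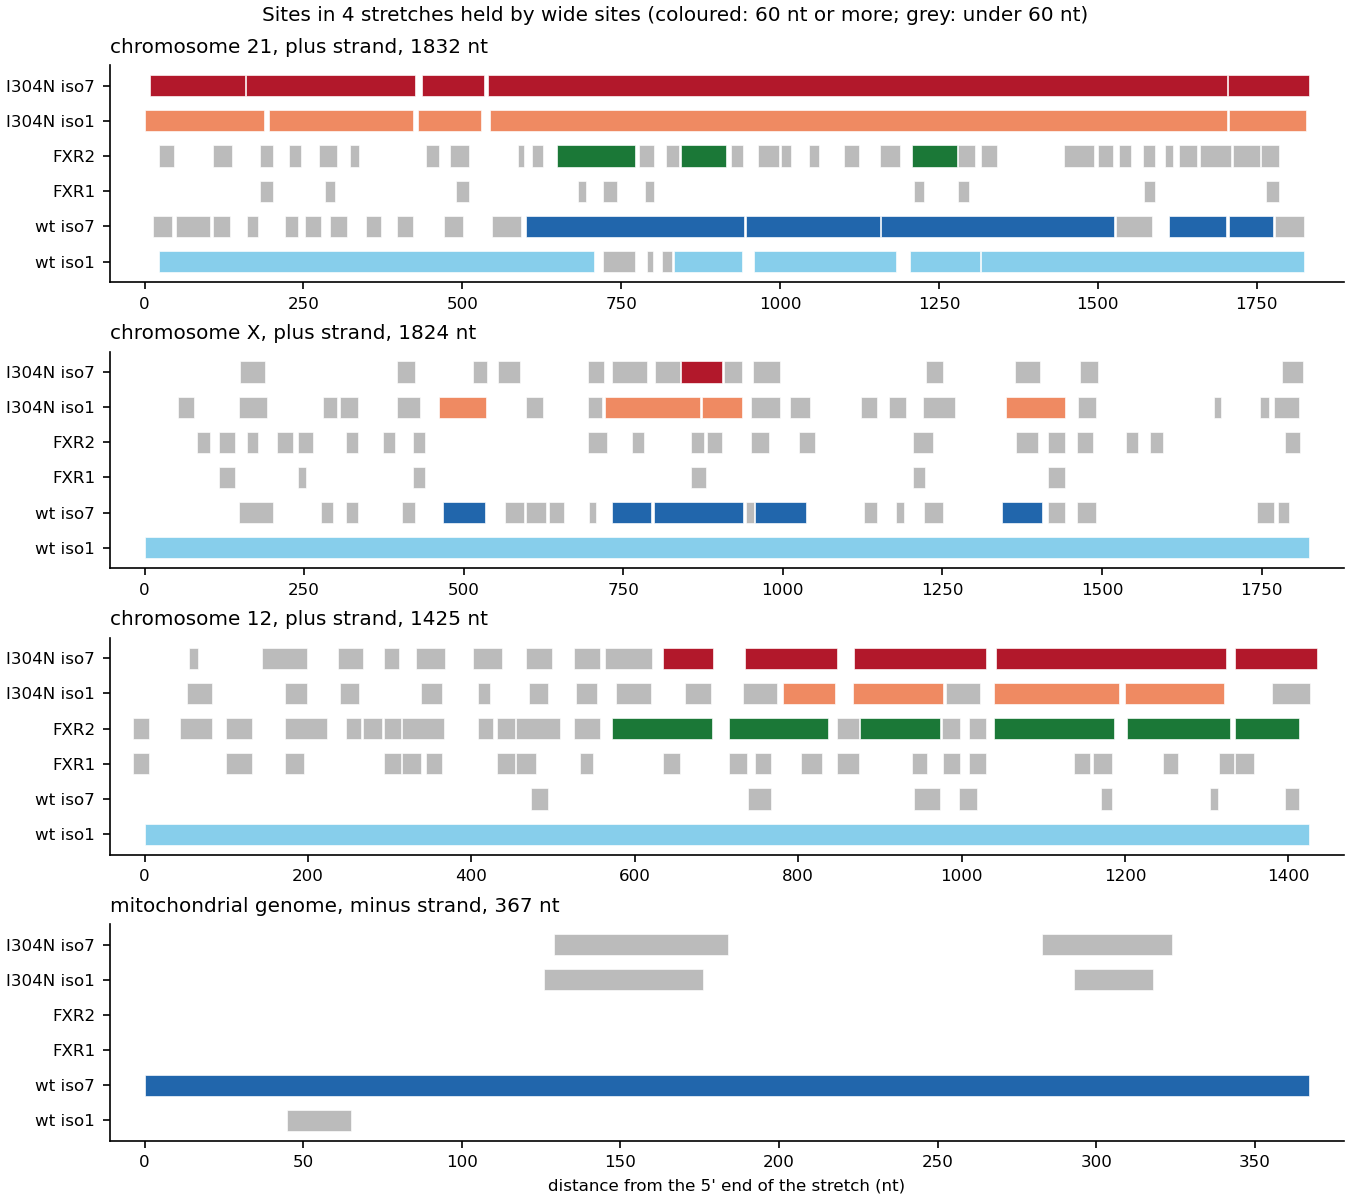
Sites of the 6 libraries in 4 stretches, by distance from the 5′ end of the stretch (nt); coloured bars are sites of 60 nt or more and grey bars narrower ones, drawn to scale. The chromosome 21 stretch is filled by 5 wide sites in each I304N list, the chromosome X and 12 stretches are 1 site each in wt iso1 and 6 to 22 sites elsewhere, and the mitochondrial stretch is 1 site in wt iso7.

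By chromosome, wide sites of the 4 FMR1 lists lay on X more often than narrower sites of the same list did. FXR2 had 0 of 53 wide sites on X, with an exact upper limit of 6.72%, and 3.93% of its narrower sites there. The share on X was 5.62% of wide and 3.03% of narrower sites in I304N iso7, 5.66% and 3.0% in I304N iso1, 9.30% and 3.64% in wt iso7, and 5.41% and 3.21% in wt iso1. The ratio was 1.86 (1.63 to 2.11) in I304N iso7, 1.89 (1.70 to 2.09) in I304N iso1, 2.55 (2.13 to 3.06) in wt iso7 and 1.68 (1.53 to 1.86) in wt iso1. Chromosome 17 was also higher, with ratios of 1.19 in I304N iso7, 1.27 in I304N iso1, 1.49 in wt iso7 and 1.35 in wt iso1. Without the 5 windows richest in wide sites, left out after seeing the data, the ratio on chromosome 17 was 1.03 in I304N iso7, 1.14 in I304N iso1, 1.30 in wt iso7 and 1.29 in wt iso1. On X it was then 1.93 in I304N iso7, 1.76 in I304N iso1, 2.91 in wt iso7 and 1.73 in wt iso1. Only I304N iso1 had a window on X among those left out. The other FMR1 lists lost no site on X, so there the removal could not lower the ratio on X. Chromosomes 2, 3, 4, 11 and 14 were lower, with intervals below 1, in all 4 FMR1 lists; on chromosome 4 the ratios were 0.385 in I304N iso7, 0.650 in I304N iso1, 0.253 in wt iso7 and 0.627 in wt iso1. Chromosome 13 was lower in I304N iso7 (0.760), I304N iso1 (0.551) and wt iso7 (0.297), and 1.09 (0.949 to 1.25) in wt iso1, whose richest window lies there.

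The mitochondrial genome, read from both strands into long RNAs, stood apart in wt iso7. It held 69 of the 1183 wide sites of wt iso7, 5.83% (4.57 to 7.32), and 0.224% of its sites under 60 nt, a ratio of 26.1 (19.8 to 34.3). The other lists had 6 wide mitochondrial sites in I304N iso7, 2 in I304N iso1, none in FXR2 or FXR1 and 18 in wt iso1. In wt iso1 the ratio was also above 1, at 2.07 (1.27 to 3.39). It was 1.46 (0.636 to 3.34) in I304N iso7 and 0.560 (0.137 to 2.28) in I304N iso1. In wt iso7, 41 lay on the plus strand and 28 on the minus strand, and in wt iso1 16 and 2. Of the 42 wt iso7 wide sites with a site of the same list on the opposite strand at the midpoint, 40 were mitochondrial. One of the 5 widest wt iso7 sites, of 367 nt at chrM:12336-12702 (minus), met 2 sites of at most 55 nt in I304N iso7, 2 of at most 50 nt in I304N iso1, 1 of 20 nt in wt iso1 and none in FXR2 or FXR1.

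**Figure D5:**
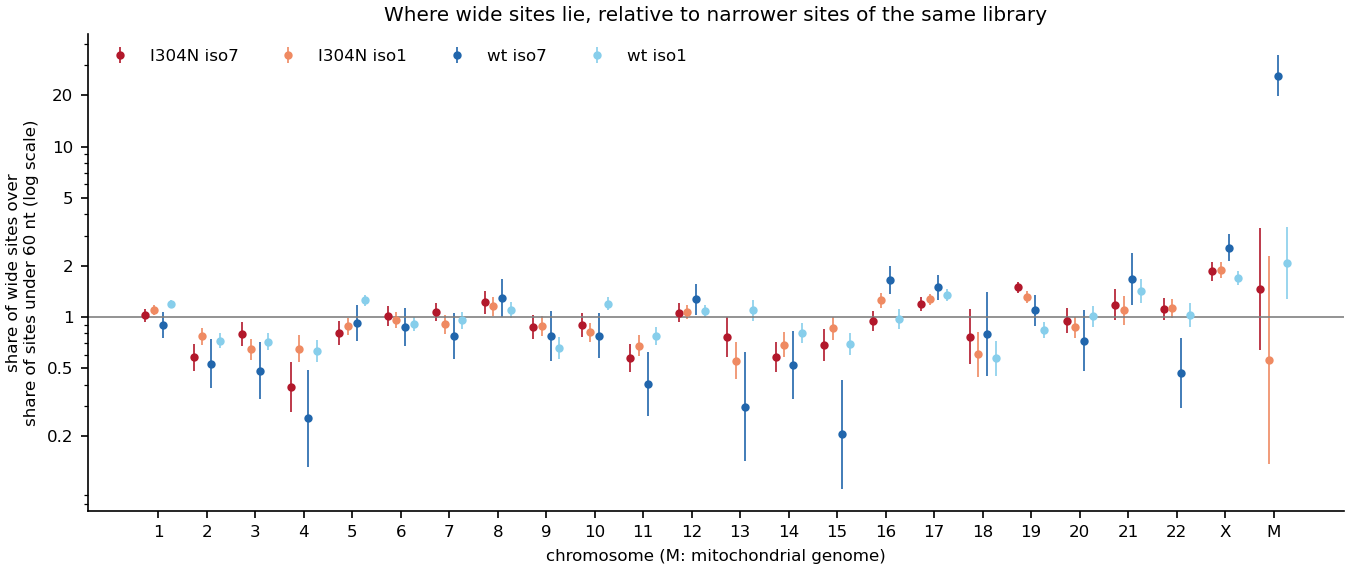
Share of wide sites on each chromosome divided by the share of sites under 60 nt of the same list (log scale, with 95% intervals), for the 4 FMR1 lists; Y, with at most 4 wide sites a list, is not drawn. All 4 points lie above 1 on X, from 1.68 to 2.55, all 4 intervals lie below 1 on chromosomes 2, 3, 4, 11 and 14, and wt iso7 reaches 26.1 on the mitochondrial genome (M).

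Few wide sites of the FMR1 lists were flagged as repeat. The deposited flag marked 3.57% of wide and 3.48% of narrower sites in I304N iso7, a ratio of 1.03 (0.877 to 1.20), and 2.98% and 3.03% in I304N iso1, a ratio of 0.982 (0.851 to 1.13). The share was higher among wide sites in wt iso7, 5.92% and 4.49% with a ratio of 1.32 (1.05 to 1.66), and in wt iso1, 7.28% and 5.22% with a ratio of 1.39 (1.28 to 1.52). In FXR2 it was 8 of 53, or 15.1% (6.75 to 27.6), against 3.89%. The strands were used about equally: 49.4% of I304N iso7, 50.5% of I304N iso1, 50.1% of wt iso7 and 53.1% of wt iso1 wide sites lay on the plus strand.

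The 53 wide sites of FXR2 lay in few places. Chromosome 12 held 15, chromosome 17 held 13 and chromosome 21 held 13, together 41. These were 28.3%, 24.5% and 24.5% of the wide sites, where the same chromosomes held 6.31%, 5.95% and 1.34% of narrower FXR2 sites. Counting any overlap on the same strand, each of the 53 met a site of at least 1 FMR1 list, 45 met all 4 FMR1 lists, and 46 met a wide FMR1 site. Wider sites meet more sites by construction. At the midpoint, 92.5% of the 53 had a site of at least 1 other library. That share was 76.1% for FXR2 sites under 60 nt and 94.1% for those of 30 to 59 nt. The widest, at chr12:1311180-1311326 (plus), was 147 nt in FXR2 and met a site of 282 nt in I304N iso7, 153 nt in I304N iso1, 13 nt in wt iso7, 1425 nt in wt iso1 and up to 23 nt in FXR1. Of the chromosome 12 sites 11 fell in the window at chr12:1300001-1350000, where FXR2 had 88 sites, I304N iso7 14 wide of 39, I304N iso1 7 of 38, FXR1 0 of 42, wt iso7 0 of 11 and wt iso1 14 of 77. In the window at chr21:34900001-34950000, FXR2 had 9 wide of 110 sites, I304N iso7 19 of 68, I304N iso1 20 of 76, wt iso7 21 of 96 and wt iso1 29 of 93.

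One cluster held more wide sites in FXR2 than in any other list. Between chr17:7495171 and 7517851 (minus), a stretch of 22681 nt chosen after seeing the sites, FXR2 had 9 wide of 26 sites, the widest of 87 nt. There I304N iso7 had 1 wide of 23 sites, I304N iso1 4 of 32, FXR1 0 of 2, wt iso7 0 of 20 and wt iso1 0 of 22. The FMR1 lists thus had a like number of sites in this stretch, with a widest site of 64 nt in I304N iso7, 80 nt in I304N iso1, 46 nt in wt iso7 and 53 nt in wt iso1. Over all sites the wide share was 4.90% in I304N iso7, 4.85% in I304N iso1, 1.51% in wt iso7 and 6.35% in wt iso1. At such shares 20 to 32 sites hold few wide ones, so a lack of FMR1 wide sites cannot be read here. Whether the stretch belongs to the gene of a tagged protein was not tested, as no annotation was used. In the other 3 of the 5 windows richest in FXR2 wide sites, at least 1 FMR1 list held more of them than FXR2.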

How the data were processed

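Per the submitters' processing notes, the aligner was Bowtie 0.12.7 and the build hg19. How sites were called, with what thresholds and how many reads, was not given in the sources used here. A line deposited by the authors gives a site's chromosome, start, end, name, score and strand. The deposited score is a flag: per the file headers it is 1000 outside repeats and 0 in repeats. Width was the end minus the start of the deposited coordinates, and coordinates are printed 1-based in hg19.

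Sites of 60 nt or more were set against sites under 60 nt of the same list, by the midpoint lying in a site of another list on the same strand, by overlap of at least 1 nt, by distance to the nearest other site (1000 nt), by chromosome and by windows of 50000 nt. Ratios of shares carry 95% intervals by normal approximation on the log scale. No p-value was computed. The named places are the 5 widest sites and 5 richest windows of each list and the 10 regions wide in most lists, of which the text gives a selection. The overlap and distance counts were tested on simulated sites. The members and lists were chosen with earlier results of these data known. No hg19 genome or annotation was used, so gene names, transcript classes, base composition, motifs and the label check through the transgenes were not analysed here. Python 3.11.15, numpy 2.4.6, pandas 2.3.3, scipy 1.17.1 and matplotlib 3.10.9 were used.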

Additional observations from a re-analysis of the deposited data

How the results depend on the processing

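No replicate was left out and no test repeated, since there was 1 library per form. No paired analysis was possible because no group has a second library. With a limit of 50 nt the wide share was 7.91% in I304N iso7, 8.05% in I304N iso1, 0.365% in FXR2, 2.76% in wt iso7 and 9.74% in wt iso1, and with 80 nt it was 2.14%, 2.12%, 0.0724%, 0.535% and 3.09%. FXR1 had 0 of 9017 sites at 80 nt, and a limit of 3 counts over that total is 0.0333%. For the midpoint ratio of wide to narrower sites in any other library, a limit of 80 nt gave 1.18 in I304N iso7 and 1.37 in I304N iso1, and 50 nt gave 1.33 in I304N iso1. Any overlap of 1 nt gave 1.23 in I304N iso7, 1.41 in I304N iso1, 1.31 in wt iso7 and 1.66 in wt iso1, as wider sites meet more by construction. Set against sites of 20 to 30 nt the ratio was 1.15, 1.29, 1.23 and 1.14 in those 4 lists. Against sites of 30 to 59 nt it was 1.01 in I304N iso7, 1.04 in I304N iso1 and 1.02 in wt iso7, and fell below 1 in FXR2 (0.982) and wt iso1 (0.957); the cause was not tested. Over single pairs of lists, 7 of 20 such ratios fell below 1 with sites of 30 to 59 nt as the comparison, and none of 20 did under each of the other 7 settings. The 7 were 0.966 for I304N iso7 in wt iso7, 0.999 for I304N iso7 in wt iso1, 0.997 for FXR2 in wt iso7, 0.974 for FXR2 in wt iso1, 0.978 for wt iso1 in I304N iso1, 0.845 for wt iso1 in FXR2 and 0.971 for wt iso1 in wt iso7. The other 13 reached 1.44 for FXR2 in I304N iso7, 1.32 for I304N iso1 in FXR2, 1.28 for wt iso7 in FXR2 and 1.22 for FXR2 in I304N iso1.

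An overlap of 50% of the shorter site in place of the midpoint gave a wide partner to 24.5% of wt iso1 wide sites. Another wide site lay within 200 nt for 37.2% of wide sites in I304N iso7, 35.4% in I304N iso1, 35.8% in FXR2, 32.2% in wt iso7 and 53.3% in wt iso1, and within 5000 nt for 77.9% in I304N iso7, 76.2% in I304N iso1, 67.9% in wt iso7 and 87.5% in wt iso1. The ratio for any neighbour within 200 nt was 1.25 in I304N iso7, 1.20 in I304N iso1, 1.68 in FXR2, 1.57 in wt iso7 and 1.21 in wt iso1. The repeat ratio of wt iso1 was 1.57 at 80 nt. On X, I304N iso1 gave 1.63 at 50 nt. Without the 5 richest windows chromosome 17 gave 1.03 in I304N iso7 and 1.14 in I304N iso1. Settings for motifs, base composition and transcript classes were not run. The comparison with 30 to 59 nt and the removal of windows were chosen after seeing the data. FXR1, with 2 wide sites, was left out of the ratios. Strand ignored, and sites flagged as repeat left out, moved no such value beyond its counting interval; leaving out mitochondrial sites moved 2 single pairs.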
